A study of Mus musculus with 17 samples.

Results

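The genes described here are the 37 members of the ephrin, Slit and netrin guidance systems, taken by gene symbol from the 26556 genes with counts in RNA-seq libraries of astrocytes from the cortex and from sensory nuclei of the thalamus. They comprise 8 EphA receptors, 5 EphB receptors, 5 ephrin-A and 3 ephrin-B ligands, 3 Slits and 3 Robo receptors, 2 secreted netrins and 2 netrin-Gs, 4 Unc5 receptors and the 2 receptors of the DCC family. The rule used only symbols, but it was set with earlier results of these data known. All 37 were listed. Of these, 21 passed the test between thalamus and cortex or between a nucleus and the other nuclei, and 16 passed it in no comparison, among them *Robo3*, which was too low to be tested. These counts pool several comparisons, and the share of all genes that passed any of them was not computed. Shares of all genes are given below for each comparison. The 17 libraries came from P7 mice of a line in which a GFAP promoter drives GFP (*Gfap::Gfp*, background FVB in the labels and FVB/N-Tg in the study's methods), and GFP-positive cells were purified by FACS after papain dissociation, with 4 brains pooled per library. All groups shared this transgene, age and procedure and received no treatment. There were 4 libraries from the primary somatosensory cortex and 13 from the thalamus, of which 5 came from the dorsal lateral geniculate (dLG), the visual nucleus, 4 from the ventral posteromedial nucleus (VPM), the nucleus of facial touch, and 4 from the ventral part of the medial geniculate (MGv), the auditory nucleus.

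Eph receptors are receptor tyrosine kinases that bind ephrins on neighbouring cells, and signals pass into both the receptor-bearing and the ephrin-bearing cell. Ephrin-As are held in the membrane by a lipid anchor and ephrin-Bs span it. Slits are secreted proteins that repel growing axons through Robo receptors, whereas netrins attract axons through DCC and neogenin and repel them through Unc5 receptors. In the developing thalamus and cortex these families are best known for the routing of thalamocortical axons and for the layout of sensory maps, and graded EphA and ephrin-A levels are part of the mapping of retinal axons onto the dLG.

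Library totals ranged from 18213687 to 50366363 counts. Cortical replicate a held the highest total and the next highest was 21519981. Levels are given as CPM (counts scaled to library size with TMM factors), and 3 counts correspond to between 0.0596 and 0.165 CPM, a floor that covers counting error only. The 10 astrocyte markers summed to 13000 to 13900 CPM in the cortex and to 6200 to 15500 CPM in the thalamus, where MGv replicate c stood at the top and the next library at 9350. *Gfap* itself lay between 450 and 537 CPM in the cortex, between 36.1 and 5520 CPM in the dLG and MGv, and between 8.97 and 19.2 CPM in the VPM. The 7 oligodendrocyte lineage markers summed to 6120 to 11100 CPM and the 10 neuronal markers to 763 to 2000 CPM over all libraries, so transcripts of these lineages were present in every library. In such bulk samples, fewer cells of a type and less RNA per cell cannot be told apart. Nothing says that the libraries of a group came from separate litters or days, and p-values measure only the spread between these libraries.

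Per length of the gene, the guidance genes covered a wide range of levels. The 5 members with a mean above 10 RPKM (reads per kilobase of exon, scaled to library size) in both the cortex and the thalamus were the ligands *Efna2* and *Efnb3*, the receptors *Ephb3* and *Ephb6*, of which the latter lacks kinase activity, and neogenin (*Neo1*). *Efna2* was at 21.2 RPKM in the cortex and 23.5 RPKM in the thalamus. The mean of 8 members was under 0.5 RPKM in both regions, namely *Epha2*, *Epha6*, *Slit2*, *Slit3*, *Robo3*, *Ntng2*, *Unc5b* and *Unc5d*. The plot of levels per length shows that the points of the 4 sources lay close together for most of the abundant members and that *Ntng1*, *Robo1*, *Ephb2* and *Efnb2* were set apart by the cortical point.

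**Figure D1:**
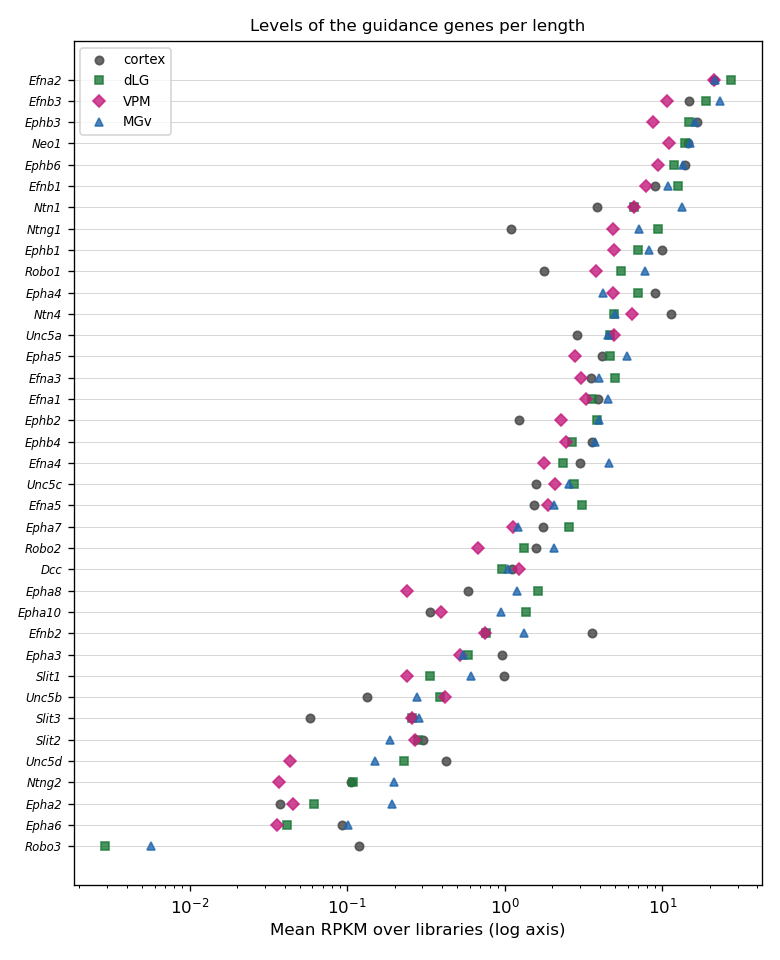
Mean level per length of each guidance gene in RPKM (log axis) over 4 cortical, 5 dLG, 4 VPM and 4 MGv libraries, ordered by the mean over the thalamic libraries, with means of 0 not drawn (*Robo3* in the VPM). *Efna2* had the highest mean over the thalamic libraries, 23.5 RPKM, and the cortical points of *Ntng1* and *Robo1* lay left of the others while that of *Efnb2* lay right of them.

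To ask how guidance genes differed between the regions, the 13 thalamic libraries were compared with the 4 cortical ones. Of 36 members tested, 6 were higher in the thalamus (16.7%, against 5.45% of all genes tested) and 5 were higher in the cortex (13.9%, against 5.93% of all genes tested). *Ephb2*, *Robo1*, *Ntn1*, *Ntng1*, *Unc5b* and *Unc5c* had higher levels in thalamic libraries, and *Epha4*, *Ephb1*, *Efnb2*, *Slit1* and *Ntn4* were higher in the cortex. The median log2FC of the members was 0.03, beside 0.02 over all genes, and 18 members had a positive and 18 a negative log2FC. For *Ephb2*, *Robo1*, *Ntn1* and *Ntng1* every thalamic library lay above every cortical one, a separation seen in 1.67% of all genes. For *Efnb2* and *Ntn4* every thalamic library lay below, as in 3.1% of all genes. Such shares of separated genes, here and below, are of the 17856 genes tested between the regions. The thalamic libraries of *Robo3*, which was not tested, also lay below, but near the floor, with 4 counts in cortical replicate c and 3 in MGv replicate b. Of the 10 astrocyte markers 3, *Slc1a2*, *Slc1a3* and *Aldoc*, were also lower in the thalamus, and the neuronal markers *Nefl* and *Nefm* were higher there while *Rbfox3* was lower. The only marker covariates fitted were the neuronal and oligodendrocyte lineage levels, given with the alternatives. Beyond these fits, the part of the marker differences in the members' results was not tested, and that of the astrocyte markers not at all.

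**Figure D2:**
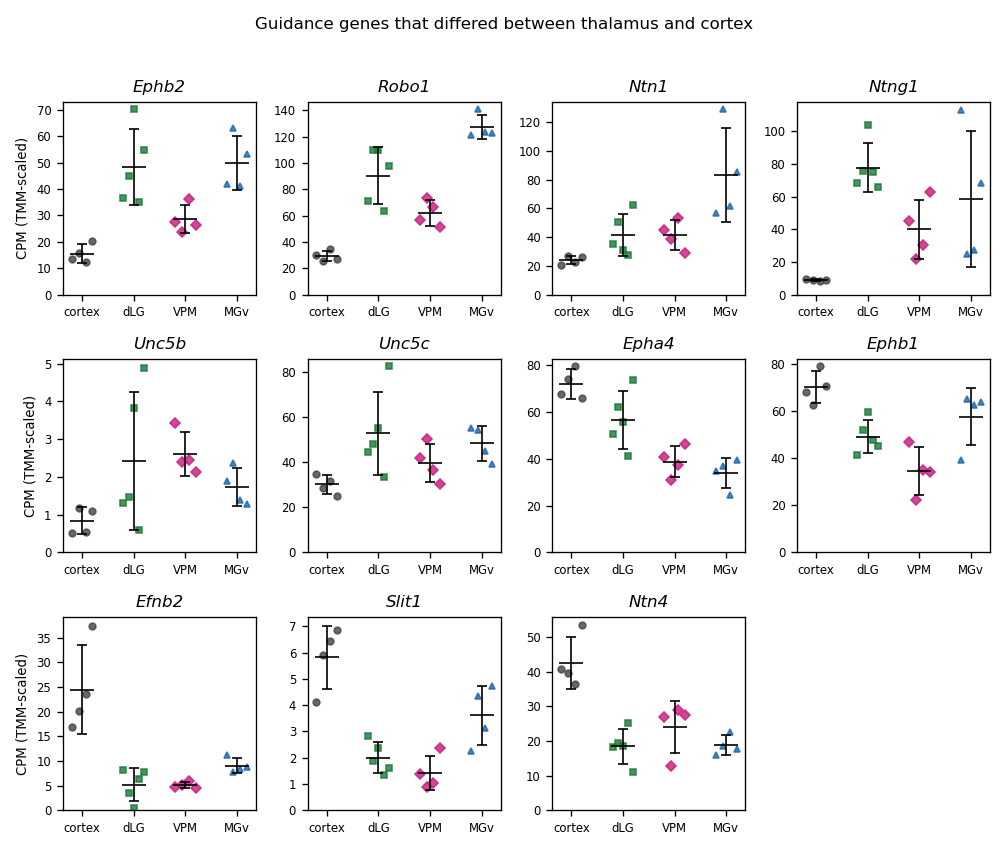
CPM of the 11 guidance genes that passed the test between thalamus and cortex, with 1 point per library and bars for mean and SD of 4 cortical, 5 dLG, 4 VPM and 4 MGv libraries. The thalamic points of *Ephb2*, *Robo1*, *Ntn1* and *Ntng1* all lay above the cortical points, and those of *Efnb2* and *Ntn4* all lay below.

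Among the receptors of the ephrin system, *Ephb2*, an EphB receptor tyrosine kinase, was higher in the thalamus. It was at 13.6, 15.6, 12.5 and 20.4 CPM in the cortical replicates a to d, and between 23.7 and 70.2 CPM with a median of 41.3 in the thalamus. The lowest thalamic libraries were the VPM replicates a, b and d, while VPM replicate c (36.1 CPM) lay above dLG replicate d (35 CPM). The log2FC was 1.46 ± 0.26 (SE), with an adjusted p of 0.00106. Here and throughout, p-values come from quasi-likelihood tests in edgeR and are Benjamini-Hochberg adjusted over all genes tested. The opposite direction was found for *Ephb1*, another EphB receptor, and for *Epha4*, which binds ephrins of both classes. *Epha4* was at 67.6, 74.2, 79.6 and 65.7 CPM in the cortex and between 24.6 and 73.7 CPM (median, 40.9) in the thalamus, where only dLG replicate e reached the cortical range. Its log2FC was −0.70 ± 0.20 (adjusted p = 0.0332). *Ephb1* was at 68.2, 62.6, 79.1 and 70.7 CPM in the cortex and between 22.1 and 65.1 CPM (median, 47) in the thalamus, and 2 MGv libraries, b and d, overlapped the cortex. Its log2FC of −0.57 ± 0.20 (adjusted p = 0.09) kept the call with only 5 of the 17 libraries left out in turn, none of them cortical. It kept the call under 3 of the 12 other alternatives.

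Of the 8 ephrins, only *Efnb2* passed the test between the regions. *Efnb2*, a transmembrane ligand of EphB receptors that is also made by arterial endothelium, was at 16.8, 20.2, 23.5 and 37.3 CPM in the cortex. In the thalamus it ranged from 0.378 CPM in dLG replicate c to 11.2 CPM in MGv replicate a, with a median of 6.27, so the regions did not overlap. The log2FC was −1.94 ± 0.39 (adjusted p = 0.00276). The 6 endothelial and mural markers summed to 37.7 to 64.9 CPM in the cortex (median, 53.7). In the thalamus they summed to 2.36 to 67.6 CPM (median, 11.7), where dLG replicate a stood at the top and the next library at 25.8. Of the 6 only *Pdgfrb*, a pericyte marker, was called, with a log2FC of −3.74. *Efnb2* was at 8.14 CPM in dLG replicate a. No vascular marker level was fitted as a covariate, and the part of vascular cells in the *Efnb2* difference was not tested.

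In the Slit and Robo system, the receptor *Robo1* was higher in the thalamus and the ligand *Slit1* was lower. *Robo1* was at 30.4, 25.8, 34.5 and 26.9 CPM in the cortex and between 51.6 and 141 CPM (median, 98.1) in the thalamus, with a log2FC of 1.66 ± 0.26 (adjusted p = 0.000224). Of the nuclei, the VPM had the mean nearest to the cortex, 62.1 ± 9.72 CPM (SD), and the MGv the farthest, 127 ± 8.99 CPM. The dLG replicates a and d, at 71.3 and 63.2 CPM, lay inside the VPM range. *Robo2*, the other major receptor of Slits, had cortical and thalamic means of 26.6 ± 5.5 and 22.9 ± 11.8 CPM and did not pass the test (adjusted p = 0.783). *Slit1* was low throughout, at 4.12, 5.9, 6.43 and 6.85 CPM in the cortex and between 0.892 and 4.71 CPM (median, 2.26) in the thalamus. The ranges overlapped only through the MGv replicates b and d and cortical replicate a, and the log2FC was −1.32 ± 0.36 (adjusted p = 0.0265). *Robo3*, a divergent Robo that is known for axon crossing at the midline, was too low to be tested. It was detected in the cortex at a mean of 0.815 CPM, no thalamic library held more than 3 counts of it, and its cortical mean was at least 5.54-fold higher than the thalamic floor of 3 counts per library.

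The largest difference between the regions among the members tested was that of *Ntng1*. This gene encodes netrin-G1, a membrane-anchored relative of the netrins that binds the synaptic adhesion protein NGL-1 instead of DCC or Unc5 and is known as a marker of thalamocortical axons. It was at 9.84, 8.8, 8.21 and 8.97 CPM in the cortex and ranged from 21.9 to 113 CPM (median, 66.1) in the thalamus. The cortical libraries were close together, whereas the thalamic ones spread widely within the VPM and MGv. The log2FC was 2.75 ± 0.42 (adjusted p = 0.000181). Within the MGv, replicates a and d held 113 and 68.4 CPM of *Ntng1* and summed neuronal markers of 2000 and 1650 CPM, and replicates b and c held 24.9 and 27.3 CPM with marker sums of 914 and 763 CPM. In the VPM, the replicates with the lowest and the highest neuronal sum, b (886 CPM) and d (1780 CPM), also had the lowest and the highest *Ntng1*. In the cortex the neuronal sum was 1140 to 1370 CPM, with *Ntng1* below 10 CPM. With the neuronal marker level as a covariate the log2FC was 2.15 ± 0.21 (adjusted p = 1.5e-06). These markers are shared by neurons of both regions, so the fit cannot adjust for a transcript of thalamic neurons alone. Whether *Ntng1* came from neuronal RNA was not tested. *Lrrc4c*, which encodes NGL-1, is given with the other pathway genes.

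The secreted netrins went in opposite directions. *Ntn1*, the classical netrin, was at 20.4, 26.6, 22.8 and 26.2 CPM in the cortex and between 27.8 and 129 CPM (median, 50.5) in the thalamus. Its groups did not overlap and the log2FC was 1.18 ± 0.33 (adjusted p = 0.0336). *Ntn4*, a laminin-binding netrin of basement membranes, was at 40.6, 39.5, 36.4 and 53.5 CPM in the cortex and between 11 and 28.8 CPM (median, 18.6) in the thalamus, again without overlap and with a log2FC of −1.07 ± 0.20 (adjusted p = 0.00141). Among the repulsive netrin receptors, *Unc5c* was at 34.9, 28.8, 31.9 and 25.1 CPM in the cortex and between 30.3 and 82.8 CPM (median, 45.2) in the thalamus, where 2 libraries, dLG replicate d and VPM replicate d, fell within the cortical range. Its log2FC was 0.65 ± 0.20 (adjusted p = 0.051). *Unc5b*, which is also an endothelial receptor, was low, at 0.518, 1.18, 0.544 and 1.11 CPM in the cortex and between 0.597 and 4.89 CPM (median, 2.12) in the thalamus, with a log2FC of 1.44 ± 0.49 (adjusted p = 0.0817). *Unc5a* had cortical and thalamic means of 11.9 ± 1.91 and 19.5 ± 7.12 CPM and did not pass the test (adjusted p = 0.112). The netrin receptors *Dcc* and *Neo1* did not pass it either, with log2FCs of −0.04 and −0.13.

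The library numbers in the labels fall into series, of which 2 hold both regions, and the regional comparison was repeated within each. In the larger series, with 2 cortical and 8 thalamic libraries, the log2FC was 2.78 for *Ntng1*, 1.73 for *Robo1*, 1.39 for *Ephb2*, −2.06 for *Efnb2* and −1.09 for *Ntn4*, with adjusted p-values from 0.0035 to 0.0252. The smaller one had 2 cortical and 4 thalamic libraries, 2 dLG and 2 VPM, whereas all 4 MGv libraries are in the larger one. The thalamic sides of the series therefore differ in their nuclei. In the smaller one the values were 2.50, 1.40, 1.30, −1.60 and −1.07 in the same order of genes. There *Ntng1*, *Robo1* and *Efnb2* kept the call and *Ephb2* (adjusted p = 0.214) and *Ntn4* (adjusted p = 0.345) did not. The other 6 members called between the regions kept their direction in both series and passed the test in neither. *Ntn1* had log2FCs of 1.36 and 0.91 and *Slit1* had −1.22 and −1.91 in the larger and the smaller series. *Ntng1* and *Robo1* kept the regional call under every alternative, and *Efnb2* under every alternative that tested it, since its 8 counts in dLG replicate c removed it from the fit of genes with at least 10 counts in every library. *Ephb2* and *Ntn4* kept it whichever library was left out. *Ntn1* lost the call without cortical replicate a (adjusted p = 0.114) and *Slit1* without cortical replicate d (adjusted p = 0.127). *Epha4* lost it without cortical replicate b or c, *Unc5c* without b or d, and *Unc5b* without any 1 cortical library or VPM replicate a.

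The sequences upstream of *Robo1*, *Ephb2*, *Efnb2* and *Ntn4* are shown because these are receptors and ligands whose thalamic and cortical libraries did not overlap, with 2 in each direction. That of *Ntng1* is left out, since its window overlaps an annotated exon. Each is the 250 bases before the RefSeq transcription start (GRCm38.p6), written 5′ to 3′ on the strand of the gene. The windows are chr16:72662899-72663148 on the plus strand for *Robo1*, chr4:136836013-136836262 on the minus strand for *Ephb2*, chr8:8661243-8661492 on the minus strand for *Efnb2* and chr10:93640799-93641048 on the plus strand for *Ntn4*. Those of *Ephb2* and *Efnb2* lie outside the gene as Ensembl annotates it, and those of *Robo1* and *Ntn4* lie in an intron of a longer transcript. Capitals mark a GC box (GGGCGG, or CCGCCC on the other strand) or a TATA box (TATAAA, or TTTATA on the other strand).
Robo1: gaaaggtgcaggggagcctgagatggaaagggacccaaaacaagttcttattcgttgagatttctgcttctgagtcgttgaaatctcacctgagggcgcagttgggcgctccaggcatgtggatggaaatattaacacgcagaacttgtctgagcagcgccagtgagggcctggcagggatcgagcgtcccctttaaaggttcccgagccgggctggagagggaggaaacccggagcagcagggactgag
Ephb2: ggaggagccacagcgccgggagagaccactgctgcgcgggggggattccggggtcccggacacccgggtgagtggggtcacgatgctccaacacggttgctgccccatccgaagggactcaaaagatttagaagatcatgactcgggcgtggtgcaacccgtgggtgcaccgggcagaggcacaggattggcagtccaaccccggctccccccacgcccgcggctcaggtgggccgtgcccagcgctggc
Efnb2: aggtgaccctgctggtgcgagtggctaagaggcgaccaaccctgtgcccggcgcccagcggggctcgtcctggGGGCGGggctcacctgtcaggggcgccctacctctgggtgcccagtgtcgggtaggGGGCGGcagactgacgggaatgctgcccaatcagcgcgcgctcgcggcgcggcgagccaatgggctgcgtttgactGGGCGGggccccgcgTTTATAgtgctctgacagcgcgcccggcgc
Ntn4: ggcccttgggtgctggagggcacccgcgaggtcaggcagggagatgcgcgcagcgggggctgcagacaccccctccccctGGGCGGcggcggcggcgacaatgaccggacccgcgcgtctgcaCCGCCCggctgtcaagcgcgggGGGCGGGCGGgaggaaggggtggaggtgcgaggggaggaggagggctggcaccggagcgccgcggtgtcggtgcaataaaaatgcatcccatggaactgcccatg
The *Efnb2* window held 3 GC boxes, 1 TATA box and 27 CpG dinucleotides, and the *Ntn4* window held 4 GC boxes, of which 2 overlap, and 26 CpGs. The *Robo1* and *Ephb2* windows held none of these motifs, and 11 and 20 CpGs. The median over the 32851 promoters of the same length in the table was 6 CpGs. A GC box was found in 32.7% of those promoters and a TATA box in 12.4%. The homeodomain core TAATTA (4.84% of all promoters) and the TCF/LEF core CTTTGAT or ATCAAAG (3.21%) were also searched for and not found in the 4 windows. Of the 32 members with a promoter in the table, 23 held a GC box, 2 a TATA box, 3 the homeodomain core and 0 the TCF/LEF core. These matches describe letters in the window and say nothing of which factors bind there.

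Among the thalamic nuclei, the guidance genes were mostly lowest in the VPM. Every nucleus was set against the average of the other 2, with 35 members tested. In the VPM 12 members were lower (34.3%, against 9.78% of all genes tested) and none was higher (against 7.07% of all genes tested), where DESeq2 also called 0 higher and 0 of the members had an unadjusted p under 0.05 in that direction. The median log2FC of the members was −0.57, beside −0.02 over all genes, and 30 of 35 members had a negative log2FC. The 12 were the EphA receptors *Epha5*, *Epha8* and *Epha10*, the EphB receptors *Ephb1*, *Ephb2*, *Ephb3* and *Ephb6*, the ligands *Efnb1* and *Efnb3*, *Robo1*, *Robo2* and *Neo1*. Of the 5 EphB receptors 4 were called, with a median log2FC of −0.66 over the 5. The 5 ephrin-As had a median log2FC in the same direction, −0.45. Of them 0 were called, which is little apart from the 9.78% of all genes. For *Epha5*, *Epha8*, *Ephb3*, *Efnb3* and *Robo2* every VPM library lay below every dLG and MGv library, a separation seen in 2.55% of all genes.

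**Figure D3:**
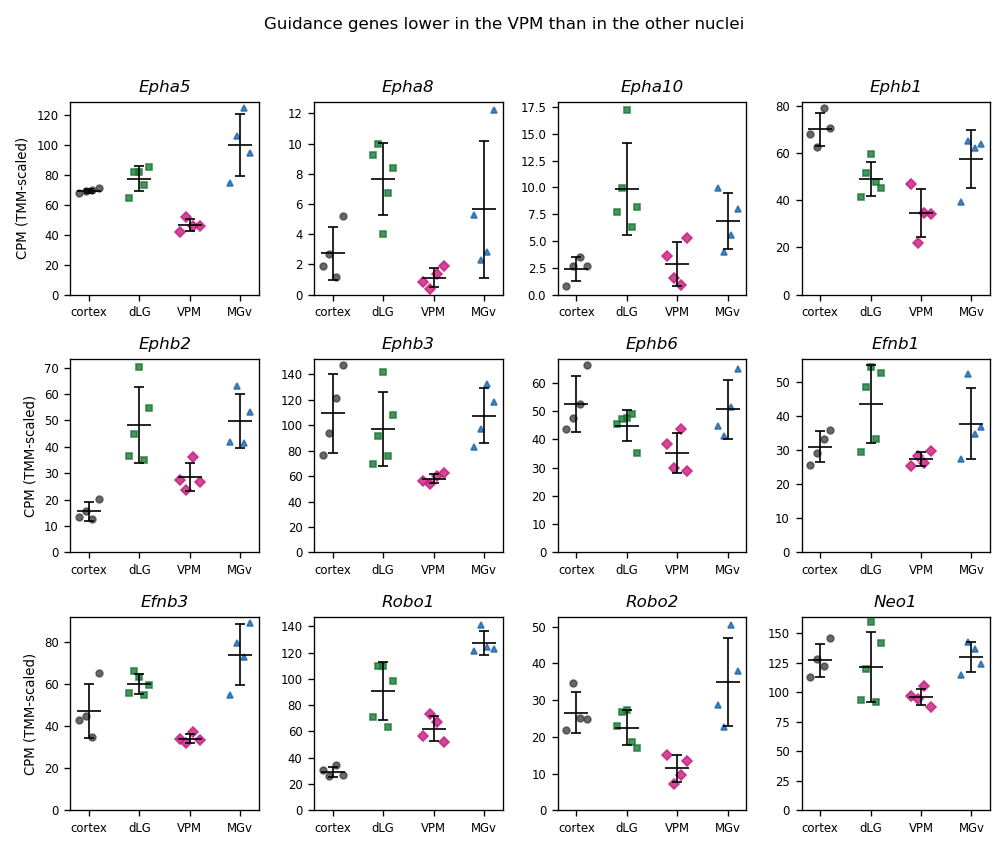
CPM of the 12 guidance genes that were lower in the VPM than in the mean of the dLG and MGv, with 1 point per library and bars for mean and SD of 4 cortical, 5 dLG, 4 VPM and 4 MGv libraries. The VPM points of *Epha5*, *Epha8*, *Ephb3*, *Efnb3* and *Robo2* lay below all points of the dLG and MGv.

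*Efnb3*, a transmembrane ephrin known from the ventral midline and from myelin, had the lowest p of the members in the VPM. It was at 33.8, 32, 37.3 and 33.3 CPM in the VPM replicates a to d, at 55.9, 66, 63.5, 54.6 and 59.7 CPM in the dLG and at 54.6, 79.3, 72.7 and 88.8 CPM in the MGv. The log2FC of the VPM was −1.0 ± 0.13 (adjusted p = 0.000883). *Epha5*, an EphA receptor with roles in topographic mapping, was at 42.1, 52.1, 45.9 and 46.1 CPM in the VPM, at 64.9, 82.2, 82.2, 73.4 and 85.3 CPM in the dLG and at 74.9, 106, 125 and 94.4 CPM in the MGv, and the log2FC was −0.95 ± 0.14 (adjusted p = 0.00221). The VPM libraries of both genes were tightly grouped and clear of the other nuclei. *Epha8*, an EphA receptor of low level here, had the largest log2FC, −2.57 ± 0.53 (adjusted p = 0.011). It was at 0.859, 0.39, 1.35 and 1.92 CPM in the VPM, at 9.22, 10, 4.01, 6.71 and 8.42 CPM in the dLG, and at 5.29, 2.28, 2.85 and 12.2 CPM in the MGv. *Epha10*, a receptor without an active kinase, was at 3.63, 1.51, 0.9 and 5.32 CPM in the VPM, overlapping with the MGv (3.93 to 9.91 CPM) but not with the dLG (6.32 to 17.2 CPM), with a log2FC of −1.56 ± 0.45 (adjusted p = 0.0419).

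Both Robo receptors were low in the VPM and high in the MGv. *Robo2* was at 15.2, 7.19, 9.75 and 13.5 CPM in the VPM, at 22.9, 26.8, 27.3, 18.6 and 16.9 CPM in the dLG, and at 28.8, 22.7, 50.4 and 37.9 CPM in the MGv. The log2FC was −1.33 ± 0.25 in the VPM (adjusted p = 0.00771). *Robo1* was at 56.9, 73.2, 66.8 and 51.6 CPM in the VPM, at 71.3, 110, 110, 63.2 and 98.1 CPM in the dLG, and at 121, 141, 124 and 123 CPM in the MGv. Its log2FC was −0.82 ± 0.16 in the VPM (adjusted p = 0.00933), with dLG replicates a and d inside the VPM range. Relative to the cortex the 2 receptors were in different positions. In the VPM, *Robo1* was above all cortical libraries, as were 7.95% of all genes, and *Robo2* was below all of them, as were 9.32%.

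Of the EphB receptors, *Ephb3* was at 56, 54.1, 59.8 and 62.3 CPM in the VPM, at 69.5 to 142 CPM (median, 91.4) in the dLG and at 82.8 to 132 CPM (median, 108) in the MGv, with a log2FC of −0.85 ± 0.18 (adjusted p = 0.0133). *Ephb2* was at 27.6, 23.7, 36.1 and 26.5 CPM in the VPM, at 36.7, 45, 70.2, 35 and 54.7 CPM in the dLG and at 42, 63, 41.3 and 53.2 CPM in the MGv, with a log2FC of −0.82 ± 0.20 (adjusted p = 0.0221). Only VPM replicate c reached the dLG range. *Ephb1* was at 47, 22.1, 34.8 and 34.3 CPM in the VPM, at 41.3 to 59.8 CPM in the dLG and at 39.4, 65.1, 62.4 and 63.8 CPM in the MGv, and its log2FC was −0.66 ± 0.19 (adjusted p = 0.0413). *Ephb6* had the smaller log2FC of −0.47 ± 0.15 (adjusted p = 0.0644), with 38.2, 29.7, 43.6 and 28.8 CPM in the VPM overlapping 35.2 to 48.9 CPM in the dLG and 41 to 64.9 CPM in the MGv. *Ephb4*, known chiefly from veins, was the EphB receptor that did not pass, at 11.3 ± 2.77 CPM in the VPM, 12.3 ± 2.4 CPM in the dLG and 17.3 ± 6.96 CPM in the MGv. The remaining calls were weak. *Efnb1*, a ligand of EphB receptors, was at 25.2, 28.1, 26.1 and 29.7 CPM in the VPM, at 29.5 to 54.3 CPM in the dLG and at 27.3 to 52.2 CPM in the MGv (log2FC, −0.60 ± 0.20, adjusted p = 0.0661). *Neo1* was at 97, 94.1, 105 and 88 CPM in the VPM, at 91.5 to 160 CPM in the dLG and at 115 to 143 CPM in the MGv (log2FC, −0.42 ± 0.15, adjusted p = 0.0831).

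*Epha5*, *Efnb3*, *Robo1* and *Robo2* kept the VPM call under every alternative. *Epha8* did so wherever it was tested, as its 7 counts in VPM replicate b removed it from the fit of genes with at least 10 counts in every library. *Ephb2* and *Ephb3* kept it whichever library was left out. Without VPM replicate b the count fell to 7. Other cell types' markers also moved with the VPM. All 5 microglial markers were lower there, with sums of 6.11 to 10.1 CPM in the VPM, 9.65 to 84 CPM in the dLG and 10.3 to 49.8 CPM in the MGv. Of the 7 oligodendrocyte lineage markers 2 were higher in the VPM, the myelin gene *Mbp* among them, and the progenitor markers *Pdgfra* and *Cspg4* were lower, with sums of 6920 to 11100 CPM in the VPM against 6120 to 8900 CPM in the other nuclei. With the level of the oligodendrocyte lineage markers as a covariate 9 members were lower in the VPM, and with that of the neuronal markers 14 were. Of the astrocyte markers, *Gjb6* and *Gja1* were higher in the VPM and *Sox9* and *Gfap* were lower. The neuronal marker *Nefm* was higher there and *Elavl3* lower, and the choroid plexus marker *Folr1* and the fibroblast marker *Dcn* were lower. Only the neuronal and oligodendrocyte lineage levels were fitted as covariates. The part of the microglial, astrocyte, choroid plexus and fibroblast markers in the members' results was not tested.

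In the MGv 5 members were higher than in the dLG and VPM on average (14.3%, against 1.57% of all genes tested) and none was lower (against 0.756% of all genes tested), where DESeq2 also called 0 lower and 1 of the members had an unadjusted p under 0.05 in that direction. The median log2FC was 0.39, beside 0.02 over all genes. The 5 were *Epha5*, *Efnb3*, *Robo1*, *Robo2* and *Ntn1*, and the first 4 of them were also lower in the VPM. The contrasts of the nuclei use the same 13 libraries, so a low VPM contributes to a high MGv. *Efnb3* had a log2FC of 0.73 ± 0.12 (adjusted p = 0.00576), *Epha5* of 0.76 ± 0.13 (adjusted p = 0.00752), *Robo1* of 0.78 ± 0.15 (adjusted p = 0.0154) and *Robo2* of 1.15 ± 0.22 (adjusted p = 0.0169). *Robo1* was the only member whose MGv libraries all lay above those of the dLG and VPM, as in 0.661% of all genes. *Robo2* lost the call without MGv replicate c, its highest library and the one with the highest astrocyte marker sum (adjusted p = 0.115), and with the series of library numbers as covariate (adjusted p = 0.117). *Ntn1* differed in that its VPM level was close to that of the dLG. It was at 56.7, 129, 61.9 and 85.7 CPM in the MGv, at 35.2, 50.5, 30.7, 27.8 and 62.6 CPM in the dLG and at 44.8, 38.5, 53.4 and 29 CPM in the VPM, with 1 dLG library within the MGv range and a log2FC of 1.03 ± 0.24 (adjusted p = 0.0535). It lost this call without MGv replicate b, MGv replicate d or VPM replicate d, with the series as a covariate (adjusted p = 0.207) and with the neuronal marker level as a covariate (adjusted p = 0.143). *Robo1* lost the call with the oligodendrocyte lineage marker level as a covariate (adjusted p = 0.119). *Epha5* and *Efnb3* kept the MGv call under every alternative run. All 4 MGv libraries belong to a single library number series, and within it *Epha5*, *Efnb3*, *Robo1* and *Robo2* had log2FCs of 0.80, 0.69, 0.82 and 1.06 with adjusted p-values between 0.0446 and 0.0838, whereas *Ntn1* had 1.00 (adjusted p = 0.13). Among the markers, *Gfap* and *Folr1* were higher and *Gjb6* and *Nefm* lower in the MGv. The only marker covariates fitted were the neuronal and oligodendrocyte lineage levels, so the part of *Gfap*, *Gjb6* and *Folr1* was not tested.

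In the dLG 2 members were higher than in the VPM and MGv on average (5.71%, against 0.941% of all genes tested), both EphA receptors, and none was lower (against 0.214% of all genes tested), where DESeq2 also called 0 lower and 0 of the members had an unadjusted p under 0.05 in that direction. *Epha7*, an EphA receptor that is graded across the developing thalamus and cortex, was at 20.1, 30.3, 35.2, 21.1 and 19.1 CPM in the dLG, at 15.1, 7.08, 7 and 14.9 CPM in the VPM and at 16.9, 9.89, 9.83 and 11.2 CPM in the MGv. Every dLG library lay above every VPM and MGv library, which held for no other member and for 0.426% of all genes. The log2FC was 1.14 ± 0.24 (adjusted p = 0.043), and the call was lost without dLG replicate b, dLG replicate c or MGv replicate d. *Epha4* was at 50.4, 62.2, 55.7, 41.1 and 73.7 CPM in the dLG, at 40.9, 30.8, 37.3 and 46.2 CPM in the VPM and at 34.7, 36.8, 24.6 and 39.3 CPM in the MGv, where only dLG replicate d and VPM replicate d overlapped the other group. Its log2FC was 0.66 ± 0.16 (adjusted p = 0.081), and it kept the call with only 3 of the 13 libraries left out in turn. The neuronal marker sum was 1360 to 1770 CPM in the dLG, 886 to 1780 CPM in the VPM and 763 to 2000 CPM in the MGv, and with it as a covariate neither gene passed. Neither passed with the series of library numbers as covariate (adjusted p = 0.157 for *Epha7* and 0.217 for *Epha4*) or within the larger series, which holds 2 of the dLG libraries. *Epha8* (log2FC, 1.61 ± 0.42, adjusted p = 0.12) and *Epha10* (log2FC, 1.17 ± 0.38, adjusted p = 0.259) had larger log2FCs in the dLG and did not pass the test.

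**Figure D4:**
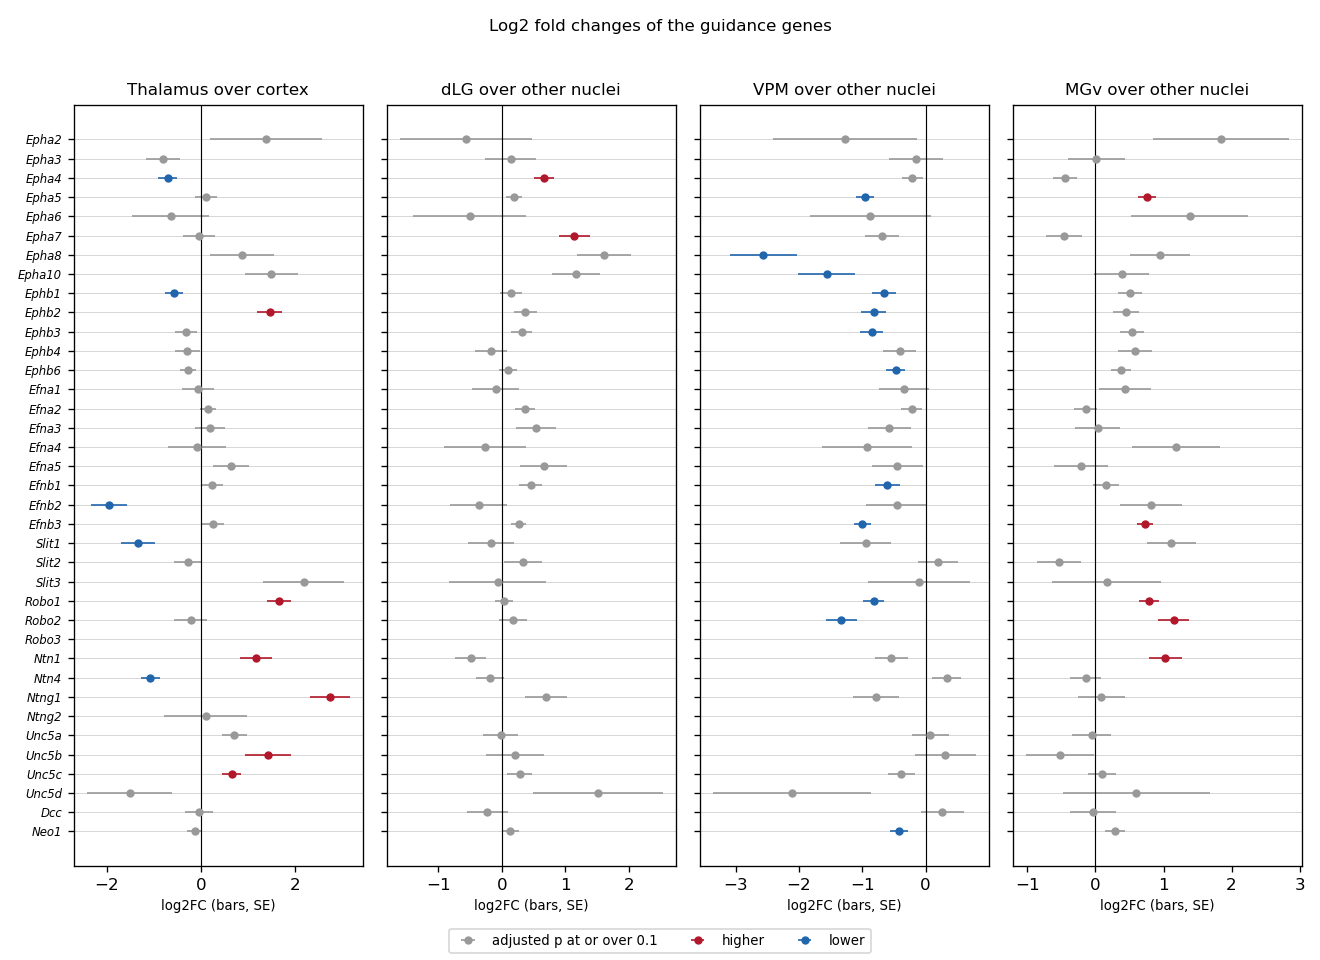
Log2FC of each guidance gene in the thalamus over the cortex and in each nucleus over the mean of the other nuclei, with bars for SE, red for members that were higher and blue for members that were lower at an adjusted p under 0.1. The calls were split between 6 higher and 5 lower in the thalamus, and were 12 lower in the VPM, 5 higher in the MGv and 2 higher in the dLG.

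Nuclei were also compared in pairs. Between the dLG and VPM 11 members differed (31.4%, against 9.64% of all genes tested), and all 11 were higher in the dLG. Between the VPM and MGv 11 members differed (31.4%, against 11.4% of all genes tested), and all 11 were lower in the VPM. *Epha5*, *Epha8*, *Ephb2*, *Ephb3*, *Efnb3*, *Robo1* and *Robo2* were lower in the VPM in both pairs, which share the VPM libraries. *Ephb1*, *Ephb6*, *Slit1* and *Ntn1* were called between the VPM and MGv and not between the dLG and VPM, with log2FCs of −0.78, −0.56, −1.38 and −1.05 in the VPM. *Epha4*, *Epha7*, *Epha10* and *Efnb1* were called between the dLG and VPM and not between the VPM and MGv, with log2FCs of 0.58, 1.22, 1.82 and 0.71 in the dLG. Between the dLG and MGv no member differed (against 0.647% of all genes tested), where DESeq2 called 3 and 7 members had an unadjusted p under 0.05. The widest log2FC of a member called elsewhere was that of *Epha7*, 1.07 higher in the dLG with an adjusted p of 0.21. All dLG libraries lay above those of the MGv for *Epha7* and *Epha4* (as in 1.08% of all genes) and below them for *Robo1* (1.24%).

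Set against the cortex alone, 12 members differed in the dLG (33.3%, against 19.4% of all genes tested), 12 in the VPM (33.3%, against 9.00% of all genes tested) and 11 in the MGv (30.6%, against 15.4% of all genes tested). These comparisons share the 4 cortical libraries, so they are given side by side. In the dLG 8 members were higher and 4 lower than in the cortex, in the VPM 3 were higher and 9 lower, and in the MGv 8 were higher and 3 lower. *Ntng1* had log2FCs of 3.11, 2.16 and 2.7 in the dLG, VPM and MGv, *Robo1* of 1.62, 1.08 and 2.12 and *Ephb2* of 1.64, 0.88 and 1.69, and these 3 were higher than the cortex in each nucleus. *Efnb2* had −2.23, −2.26 and −1.44 and *Ntn4* had −1.20, −0.83 and −1.18, and these 2 were lower in each. *Epha5* differed from the cortex in opposite directions. It was at 68, 69.1, 69.7 and 71.1 CPM in cortical replicates a to d, and its log2FC was −0.58 ± 0.14 in the VPM (adjusted p = 0.0146) and 0.53 ± 0.14 in the MGv (adjusted p = 0.0223). Every VPM library lay below the 4 cortical ones, as in 9.32% of all genes, and every MGv library above them, as in 8.68%. The share of genes with both was not computed. The VPM and MGv differed directly by a log2FC of −1.14 ± 0.16 (adjusted p = 0.00145). Over the thalamus as a whole *Epha5* did not pass, with a log2FC of 0.11 ± 0.23. *Ephb3*, *Ephb6* and *Robo2* passed the test against the cortex in the VPM, with log2FCs of −0.91, −0.58 and −1.22, beside −0.17, −0.23 and −0.24 in the dLG and −0.02, −0.05 and 0.39 in the MGv. *Epha10* was at 0.842 to 3.51 CPM in the cortex and higher in the dLG (log2FC, 2.04) and MGv (1.52), with 0.25 in the VPM. *Epha4* did not pass the test in the dLG (log2FC, −0.34, adjusted p = 0.202), where only replicate e reached the cortical range, and was lower in the VPM (−0.89) and MGv (−1.08).

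The ephrin-A ligands passed the test in no comparison. *Efna2* was at 45.2 ± 6.72 CPM in the cortex, 57.7 ± 12.4 CPM in the dLG, 45 ± 3.19 CPM in the VPM and 45.6 ± 12 CPM in the MGv. *Efna5*, the ephrin-A best known from retinal and thalamocortical mapping, stood at 6.18 ± 0.965 CPM in the cortex, beside 12.4 ± 2.46, 7.57 ± 4.22 and 8.27 ± 6.78 CPM in the dLG, VPM and MGv, with a regional log2FC of 0.64 (adjusted p = 0.362). Its dLG libraries all lay above the cortical ones, as in 5.66% of all genes. The log2FC of the dLG over the cortex was 1.00 ± 0.42 and did not pass the test (adjusted p = 0.12). *Efna1*, *Efna3* and *Efna4* lay between 2.83 and 12.1 CPM in the means of all groups, and *Efna4* was absent from 1 dLG library and reached 11.6 CPM in the MGv. Of the exonic length of *Efna3* and *Efna4*, 14.1% and 10.5% overlap genes on the other strand, and of that of *Ntng2* 14% overlaps a gene on its own strand, so these counts may include reads of both. The other members that were called nowhere were *Epha2*, *Epha3*, *Epha6*, *Ephb4*, *Slit2*, *Slit3*, *Robo3*, *Ntng2*, *Unc5a*, *Unc5d* and *Dcc*. *Epha3* had cortical and thalamic means of 8.37 ± 3.8 and 4.78 ± 2.1 CPM (log2FC, −0.80, adjusted p = 0.201), and *Dcc*, the attractive netrin receptor, was at 14.6 ± 2.96 and 14.1 ± 5.94 CPM. *Slit2* had cortical and thalamic means of 7.69 ± 2.31 and 6.34 ± 2.06 CPM. *Slit3* was between 0.0491 and 0.791 CPM in the cortex and between 0 and 5.29 CPM in the thalamus, with a log2FC of 2.19 that did not pass (adjusted p = 0.138). *Unc5d* was between 2.36 and 6.93 CPM in the cortex and, apart from a maximum of 8.69 CPM in 1 dLG library, at most 2.84 CPM in the thalamus (adjusted p = 0.365). *Epha2*, *Epha6* and *Ntng2* had means under 1 CPM in every group.

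Another 38 genes of these pathways, with 17 further ligands and receptors and 21 intracellular components, were examined in the same fits, and 36 of them were tested. Between the regions 5 had higher levels in thalamic and 3 in cortical libraries, beside 5.45% and 5.93% of all genes. The Robo effector *Srgap1*, a Slit-Robo GTPase-activating protein, had a log2FC of 1.32 ± 0.22 (adjusted p = 0.000449), and *Trio*, a guanine nucleotide exchange factor downstream of DCC, had 0.94 ± 0.22 (adjusted p = 0.0101). *Flrt1* (1.23), a member of the FLRT family of adhesion ligands, its latrophilin partner *Adgrl3* (0.65) and *Lrrc4* (0.45), which encodes the netrin-G2 partner NGL-2, were higher too. Those higher in the cortex were *Rgmb* (−0.63), a neogenin ligand, *Ngef* (−0.73), the Eph-linked exchange factor ephexin, and the adaptor *Nck2* (−0.59). *Lrrc4c* was not called, with a log2FC of 0.16 (adjusted p = 0.517). In the VPM 14 of the 36 were lower and 2 were higher than in the other nuclei, beside 9.78% and 7.07% of all genes. All 3 *Srgap* genes were lower, with log2FCs of −1.46 for *Srgap3*, −0.64 for *Srgap1* and −0.48 for *Srgap2*, as were the exchange factors *Ngef* (−0.72), *Kalrn* (−0.82), *Trio* (−0.63) and *Dock1* (−0.46). *Rgma* (−1.18), a neogenin ligand, and the netrin gene *Ntn3* (−0.70) were lower among the ligands. *Flrt1*, *Flrt3*, *Dscaml1*, *Enah* and *Vasp* were the others that were lower, with log2FCs from −0.84 to −0.43, and the chimaerin gene *Chn1* (0.48) and the kinase *Fyn* (0.72) were higher. In the MGv *Ntn3* (0.60), *Adgrl3* (0.51) and *Ngef* (0.59) were higher, and in the dLG *Gpc1* (0.88), a glypican that binds Slits. The exons of *Chn1* and *Gpc1* overlap genes on the other strand over 11.8% and 18.9% of their length.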

How the data were processed

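Astrocytes of P7 *Gfap::Gfp* mice were profiled by single-end RNA-seq on one flow cell. The authors checked the reads with FastQC (version 0.11.7), trimmed them, aligned them to GRCm38 with STAR (version 2.7.0d) and SAMtools (version 1.9), counted them per Ensembl gene with featureCounts (Subread version 1.6.4), and deposited raw counts. Whether counting used strand is not given in the sources used here. Of the identifiers, 26548 were matched to GENCODE M21 (GRCm38) and 8 were not.

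Groups follow the sample labels. The members, pathway lists and marker lists were chosen with earlier results of these data known. CPM, RPKM (TMM-scaled) and tests were computed in edgeR (version 4.0.16, R version 4.3.3) after filterByExpr, with 17856 genes tested between the regions and 17319 between the nuclei. *Robo3* was filtered out, as was *Ntng2* among the nuclei. Robust quasi-likelihood fits compared 13 thalamic with 4 cortical libraries, the 3 nuclei with each other, and each nucleus with the cortex in a fit of 4 groups. A call is a BH-adjusted p under 0.1 over all genes, as in the study. SEs were derived from the log2FC and its *F* statistic. Members called between the regions or in 1 nucleus against the others are given in full, the others by group, and pathway genes where called.

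Alternatives were DESeq2 (version 1.42.0) or its size factors, no filter or 10 counts in every library, a threshold of 0.05, blocking on the replicate letter, covariates (library number series, neuronal or oligodendrocyte lineage marker level), a fit of 4 groups, single series, and each library left out. Tests were checked on simulated data. Promoter sequences are from RefSeq (GRCm38.p6).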

Additional observations from a re-analysis of the deposited data

Results flagged for a closer look

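Among 84 groups of 4 or 5 libraries of the 21 members given in full, 5 held a library far from the rest by Dixon's test at its 95% critical value, and chance flags about 1 in 20 groups. *Ephb1* was at 39.4 CPM in MGv replicate a and at 62.4 to 65.1 CPM in the other MGv libraries. *Ephb6* was at 35.2 CPM in dLG replicate e and at 45.4 to 48.9 CPM in the others. *Ntn4* was at 12.7 CPM in VPM replicate b and at 26.9 to 28.8 CPM in the others. *Robo1* was at 141 CPM in MGv replicate b and at 121 to 124 CPM in the others, and *Ntng1* at 104 CPM in dLG replicate c and at 66.1 to 75.4 CPM in the others.

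*Epha5* differed from the cortex in opposite directions in the VPM (log2FC, −0.58) and MGv (log2FC, 0.53), with every library of each nucleus on its side of the cortical range. Of all genes, 9.32% had every VPM library below the cortex and 8.68% every MGv library above it. The test of the difference between the 2 nuclei gave a log2FC of −1.14 (BH-adjusted p = 0.00145 in edgeR).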

How the results depend on the processing

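No called member changed direction under any alternative, and of 5251 values of single genes 4816 kept their side of the threshold, 352 lost a call and 83 gained one. Counts moved most within single library number series, which hold fewer libraries. In the larger series the members called were 3 higher in the thalamus, 2 higher in the cortex, 0 higher in the dLG and 5 lower in the VPM, with 0 between the dLG and VPM, 7 between the VPM and MGv, 5 between the cortex and dLG, 7 between the cortex and VPM and 4 pathway genes. In the smaller series they were 2, 1 and 0 (thalamus, cortex, dLG against VPM), 3 and 3 (cortex against dLG and VPM) and 1 pathway gene. With the series as a covariate both dLG calls were lost and 1 other member, *Epha8*, was higher in the dLG, with 3 higher in the MGv and 4 between the dLG and VPM. The cause of these shifts was not tested. An adjusted p under 0.05 left 1 higher in the dLG and 7 between the dLG and VPM, DESeq2 called 4 higher in the dLG and 3 between the dLG and MGv, no filter left 1 and the neuronal covariate 0 higher in the dLG, and at least 10 counts left 3 higher in the cortex. Replicate letters are shared between groups, but deviations of libraries with the same letter correlated at −0.173 to 0.266 (median, 0.02, 24 pairs), so they are not treated as pairs. With the letter as a block 1 member was higher in the dLG and 1 differed between the dLG and MGv, and no other count of members moved by over 1.5 times.

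With each library left out in turn, members higher in the thalamus numbered 4 to 8, higher in the cortex 3 to 6, higher in the dLG 0 to 3, lower in the VPM 7 to 13 (7 without VPM replicate b) and higher in the MGv 4 to 7. The pairs gave 4 to 12 (dLG and VPM, 4 without VPM replicate c and 5 without a or d, 7 without dLG replicate b), 0 to 1 (dLG and MGv) and 5 to 15 (VPM and MGv, 5 without MGv replicate d, and 7 without MGv replicate b, VPM replicate a or VPM replicate b). Against the cortex they were 8 to 14 (dLG), 10 to 17 (VPM) and 8 to 13 (MGv), and pathway genes 4 to 10 (4 without cortical replicate d). Leaving out cortical replicate b, c or d gave the 3 higher in the cortex, and leaving out dLG replicate b the 0 higher in the dLG. Members higher in the VPM, lower in the dLG or lower in the MGv numbered 0 throughout. Levels at or under 3 counts, between 0.0596 and 0.165 CPM by library, were not detectable at this depth, as for *Robo3* in the thalamus.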
